A study of Arabidopsis thaliana with 4 samples.

Results

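The JAZ (JASMONATE ZIM-DOMAIN) repressors are a small family of nuclear proteins that hold jasmonate responses in check, and 10 of their genes were followed here in plants that overexpress the transcription factor gene TEM1. The 10 were JAZ1, JAZ2, JAZ3, JAZ5, JAZ6, JAZ7, JAZ8, JAZ9, JAZ10 and JAZ12, taken by locus identifier from a table of 32678 loci, and all 10 were found. RefSeq names JAZ2 as TIFY10B and JAZ9 as TIFY7, after the TIFY motif that these proteins share.

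The study sequenced RNA of entire Arabidopsis thaliana plants and set 35S:TEM1 against wild type (WT). 35S:TEM1 carries TEM1 under the 35S promoter of cauliflower mosaic virus, a strong promoter active in most plant tissues. Each genotype had 2 samples, and every sample pooled 20 plants that were 10 days old, kept at 22 °C in LD and taken at ZT18. The sources used here do not give the number of transgenic lines. Nothing in the labels says that the samples of a genotype were grown apart, so a p-value here reflects only how far these pools differ, which may be technical.

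In unstressed cells a JAZ protein binds transcription factors such as MYC2 and, through the adaptor NINJA or through a repression motif of its own, recruits the corepressor TOPLESS. When the hormone jasmonoyl-isoleucine is present, it joins JAZ to the F-box protein COI1, and the JAZ protein is degraded. The freed factors then switch on wound and defence genes, among them many JAZ genes themselves, which restores repression. JAZ transcripts therefore serve widely as readouts of jasmonate signalling, and several are also known to be induced by wounding and touch.

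TEM1 (AT1G25560), the check of the labels, reached 784 and 827 RPKM in 35S:TEM1 and 16.3 and 30.3 RPKM in WT, where RPKM is the number of reads divided by gene length and library size. The samples were scaled to 20183817 and 27807143 reads in 35S:TEM1 and to 30425737 and 24140725 reads in WT, as estimated from the steps between low values. Markers of root cells and of leaf cells were both detected, as a whole plant should give. Of 8 tested root markers 7 were higher in 35S:TEM1, as were 18.3% of all tested genes. Of those 7, PRP3, CASP2 and EXPA7 lay under 1 RPKM in WT and reached the limit for testing, a mean RPKM of 1, only through 35S:TEM1. With a limit of 5, under which fewer markers were tested, 2 were higher. The root markers had summed RPKM of 60.8 and 66.8 in 35S:TEM1 and of 31.7 and 34.1 in WT. Of 9 leaf epidermis and guard cell markers 1 was higher and 3 were lower, beside 18.3% higher and 7.37% lower of all tested genes. Their sums were 668 and 677 in 35S:TEM1 and 831 and 696 in WT. Of 5 photosynthesis markers 1 was lower, beside 7.37% of all tested genes. Their sums were 32499 and 36153 in 35S:TEM1 and 41656 and 41281 in WT. None of these 3 lists had a marker at 0 in all samples. Their part in the JAZ results was not tested, and in whole plants fewer cells of a type and less RNA per cell cannot be told apart.

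The binding site best known for MYC2 is the G-box CACGTG, and jasmonate-induced genes often carry it near their start. The windows shown here hold the G-boxes of the 3 members that were lower in 35S:TEM1 and those within 250 bases of the start of any other member, with 20 bases on either side as far as the gene start. They come from the RefSeq annotation and genome of TAIR10.1, run 5′ to 3′ on the strand of the gene, and have the G-box in capitals.
JAZ9, chr1:26654143-26654188, + strand: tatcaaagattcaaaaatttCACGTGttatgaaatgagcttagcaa
JAZ6, chr1:27277015-27277096, - strand: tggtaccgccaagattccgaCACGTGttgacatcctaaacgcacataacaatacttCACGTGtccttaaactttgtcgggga
JAZ3, chr3:6119547-6119592, + strand: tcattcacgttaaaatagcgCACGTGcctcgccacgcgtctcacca
JAZ3, chr3:6119605-6119650, + strand: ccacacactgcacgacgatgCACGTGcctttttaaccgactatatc
JAZ2, chr1:28150487-28150532, - strand: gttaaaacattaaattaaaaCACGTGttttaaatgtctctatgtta
JAZ7, chr2:14572976-14573021, + strand: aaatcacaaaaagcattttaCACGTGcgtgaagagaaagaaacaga
JAZ8, chr1:10596322-10596351, + strand: gtgtggaaaaaaacattttcCACGTGagag

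Counted back from the annotated gene start, the first base of the G-box lay at 366 bases for JAZ9, at 514 and 478 for JAZ6 and at 140 and 82 for JAZ3. It lay at 66 bases for JAZ2, 34 for JAZ7 and 10 for JAZ8. The stretch shown for JAZ6 overlaps an exon of the long non-coding RNA locus AT1G09307, and the other windows shown hold no annotated exon. Within 250 bases of the start 4 of the 10 JAZ genes held a G-box, against 6.58% of 26711 protein-coding genes. Within 1000 bases 8 of the 10 did, against 14.9%, the exceptions being JAZ10 and JAZ12. JAZ1 and JAZ5 had theirs at 844 and 589 bases.

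TEM1 belongs to the RAV family, whose proteins are known to bind CAACA and CACCTG. On either strand, CAACA was present within 250 bases in 5 of the 10 genes, against 47.3% of all genes, and within 1000 bases in 10 of 10, against 93.7%. CACCTG was present within 1000 bases in JAZ2 alone, at 737 bases, against 13.5% of all genes. These shares for the RAV sites lie near those of all genes. The matches describe the sequence only and show no binding.

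Of the 10 JAZ genes, 8 had a mean RPKM of at least 1 over the 4 samples and were tested. JAZ9, JAZ6 and JAZ3 were lower in 35S:TEM1 by limma (adjusted p under 0.05), no JAZ gene was higher, and the other 5 did not pass. Among all 17746 tested genes 7.37% were called lower and 18.3% higher, or 25.7% in either direction. That balance depends on the scaling, with 3255 genes higher and 1308 lower as deposited, 1884 higher and 2388 lower with equal sample medians, and 2021 higher and 1862 lower with quantile normalization. The 3 lower members were also the only 3 of the 8 with an unadjusted p under 0.05, a level that 7167 of the 17746 genes reached. The median log2 fold change of the 8, 35S:TEM1 minus WT on the log2(RPKM + 1) scale used throughout, was -0.31, beside 0.12 for all tested genes. Both 35S:TEM1 values lay below both WT values in JAZ2, JAZ3, JAZ6, JAZ9 and JAZ10, which is 5 of the 8 tested, as in 20.7% of all tested genes. No tested JAZ gene had both 35S:TEM1 values above both WT values, as 47.4% of all tested genes did.

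**Figure D1:**
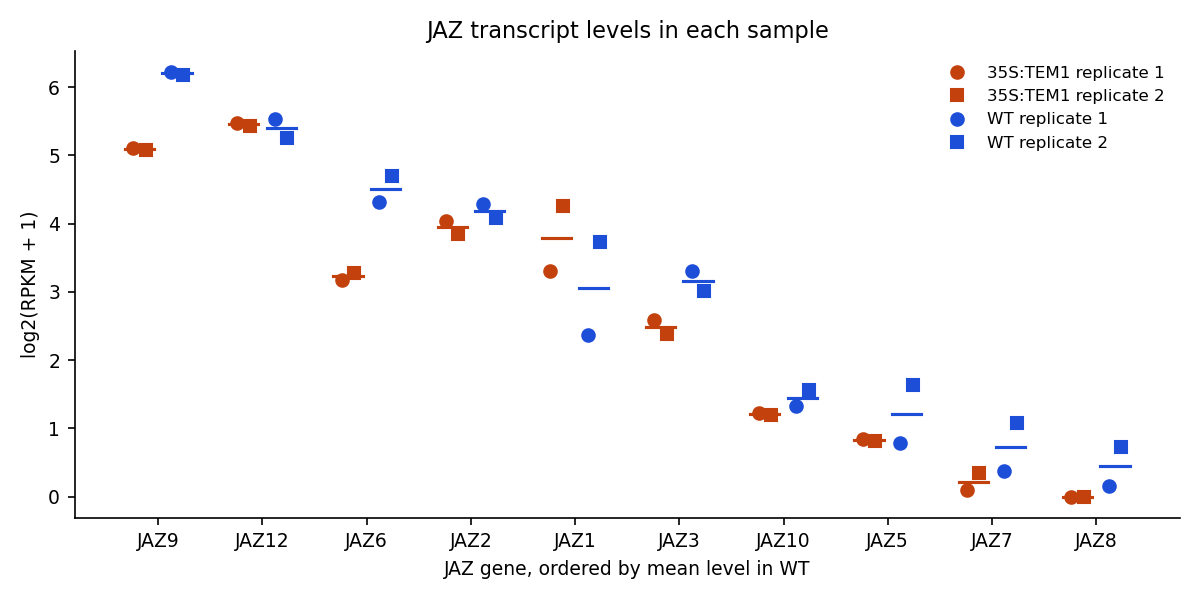
Levels of the 10 JAZ genes as log2(RPKM + 1) in each sample, with 35S:TEM1 in orange and WT in blue, replicate 1 as circles, replicate 2 as squares and short lines for the means of 2 samples. JAZ9, JAZ6 and JAZ3 lie lower in 35S:TEM1, JAZ12 lies level, and JAZ1 is spread widely within each genotype.

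JAZ9 (AT1G70700, chromosome 1) was the most abundant JAZ transcript of WT plants and had the smallest standard error of the tested members. Its protein is known to bind both MYC2 and the DELLA protein RGA, a repressor of gibberellin responses. It measured 33.6 and 32.7 RPKM in 35S:TEM1 and 73.7 and 71.6 RPKM in WT. The samples of each genotype were close together, and the gap between genotypes was far wider than either. The means were 33.1 ± 0.64 and 72.6 ± 1.49 (SD, n = 2 each), and the log2 fold change was -1.11 ± 0.08 (SE, limma adjusted p = 0.000542).

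JAZ6 (AT1G72450, chromosome 1), whose protein carries a repression motif that can contact TOPLESS directly, had the largest fall of the tested members. Its RPKM was 8.05 and 8.72 in 35S:TEM1 and 19.0 and 24.9 in WT. The WT samples differed more from each other than the 35S:TEM1 samples did, but the genotypes did not overlap. The mean of 8.38 ± 0.47 in 35S:TEM1, against 21.9 ± 4.15 in WT (SD, n = 2 each), gave a log2 fold change of -1.28 ± 0.14 (SE, limma adjusted p = 0.00225).

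JAZ3 (AT3G17860, chromosome 3) was found through jai3, a dominant jasmonate-insensitive mutant whose truncated JAZ3 protein resists degradation. It had 5.0 and 4.19 RPKM in 35S:TEM1 and 8.92 and 7.08 RPKM in WT, a smaller gap than in JAZ9 or JAZ6. Its log2 fold change of -0.68 ± 0.14 (SE) passed the test (limma adjusted p = 0.0185). Without 35S:TEM1 replicate 2 it was -0.58 and did not pass (limma adjusted p = 0.0936), whereas JAZ9 and JAZ6 passed with any one sample left out.

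JAZ12 (AT5G20900, chromosome 5), a member whose stability is known to depend on the ubiquitin ligase KEG, had 43.5 and 42.1 RPKM in 35S:TEM1 and 45.5 and 37.4 RPKM in WT. Both 35S:TEM1 values lay between the WT values. The log2 fold change was 0.052 with a 95% interval of -0.21 to 0.32 (limma adjusted p = 0.753), and its sign turned with equal sample medians (-0.10), with quantile normalization (-0.019) and without WT replicate 2 (-0.087). Exons of genes on the opposite strand cover 4.53% of its exon length.

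JAZ2 (AT1G74950, chromosome 1), known from guard cells for its part in stomatal responses to a bacterial jasmonate mimic, had 15.4 and 13.4 RPKM in 35S:TEM1 and 18.6 and 15.9 RPKM in WT. The groups did not overlap, but the higher 35S:TEM1 sample and the lower WT sample were close. Its log2 fold change was -0.24, with an interval of -0.52 to 0.043, and did not pass (limma adjusted p = 0.176). JAZ10 (AT5G13220, chromosome 5), known for splice variants that resist degradation, had 1.34 and 1.29 RPKM in 35S:TEM1 and 1.52 and 1.94 RPKM in WT. The smallest whole numbers in the proportions of the deposited values are 42 and 56 reads in 35S:TEM1 and 72 and 73 in WT. The true numbers may be multiples of them. Over the RefSeq exon length the values come to 59.7 and 79.6 reads in 35S:TEM1 and 102 and 104 in WT, so the read numbers are uncertain. The log2 fold change of JAZ10 was -0.23, with an interval of -0.59 to 0.12 (limma adjusted p = 0.279). Exons on the opposite strand cover 3.21% of its exon length.

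JAZ1 (AT1G19180, chromosome 1), an early known target of COI1 and a rapidly induced member, had 8.86 and 18.2 RPKM in 35S:TEM1 and 4.18 and 12.3 RPKM in WT. Replicate 2 was the higher sample in both genotypes, by 2.06-fold in 35S:TEM1 and by 2.96-fold in WT, and the genotypes overlapped. The log2 fold change of 0.73 ± 0.48 (SE) did not pass (limma adjusted p = 0.304). It depended on single samples, being 0.044 without WT replicate 1, and 1.41 and past the threshold without WT replicate 2 (limma adjusted p = 0.0345).

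JAZ5 (AT1G17380, chromosome 1), the closest relative of JAZ6, had 0.79 and 0.76 RPKM in 35S:TEM1 and 0.73 and 2.12 RPKM in WT. As smallest whole numbers of reads these were 18 and 24 in 35S:TEM1 and 25 and 58 in WT, so that only WT replicate 2 stood apart. The true numbers may be multiples. Over the RefSeq exon length the values come to 35.5 and 47.4 reads in 35S:TEM1 and 49.4 and 115 in WT. The log2 fold change was -0.39 (limma adjusted p = 0.345). Without WT replicate 1 it was -0.81 and passed (limma adjusted p = 0.0233), and without WT replicate 2 its sign turned (0.041).

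JAZ7 (AT2G34600, chromosome 2) and JAZ8 (AT1G30135, chromosome 1) lay under the expression limit. JAZ8 is known to lack the usual degradation motif and both carry a repression motif. JAZ7 had 0.07 and 0.27 RPKM in 35S:TEM1 and 0.29 and 1.10 RPKM in WT. As smallest whole numbers these were 1 and 5 reads against 6 and 18. Within each genotype replicate 2 was again the higher, and the lower WT sample hardly exceeded the higher 35S:TEM1 sample. JAZ8 was listed at 0 in both 35S:TEM1 samples and at 0.12 and 0.66 RPKM in WT, or 2 and 9 reads. A count of 0 allows up to 3 reads, counting error only, so WT replicate 1 cannot be told from the 35S:TEM1 samples. With no filter on low values the log2 fold changes were -0.50 for JAZ7 (limma adjusted p = 0.223) and -0.45 for JAZ8 (limma adjusted p = 0.174).

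The summed RPKM of the 10 genes was 117 and 122 in 35S:TEM1 and 173 and 175 in WT. JAZ9 made up 28.8% and 26.9% of this sum in 35S:TEM1 and 42.7% and 40.9% in WT. JAZ12 took 37.3% and 34.6% in 35S:TEM1 and 26.4% and 21.4% in WT. The ratio of JAZ9 to JAZ12 was thus 0.77 and 0.78 in 35S:TEM1 and 1.62 and 1.92 in WT, a change of order that both samples of each genotype show. With JAZ9 left out the sums were 83.0 and 89.0 in 35S:TEM1 and 98.8 and 103 in WT, so JAZ9 held most of the gap. JAZ1 made up 7.60% and 15.0% in 35S:TEM1 and 2.42% and 7.06% in WT.

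**Figure D2:**
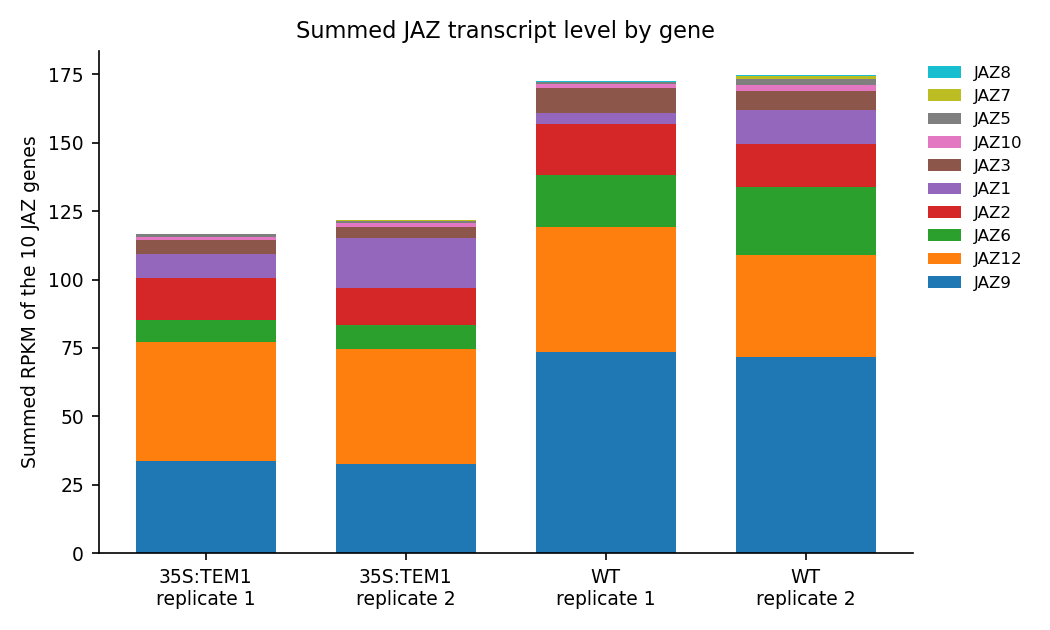
Summed RPKM of the 10 JAZ genes in each sample, stacked by gene, with the 35S:TEM1 samples left of the WT samples. The stacks reach 117 and 122 in 35S:TEM1 and 173 and 175 in WT, and the JAZ9 part at the base is the one that differs most.

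RPKM is a level per length, so levels of different members can be set in order. In 35S:TEM1 the order of mean RPKM was JAZ12, JAZ9, JAZ2, JAZ1, JAZ6, JAZ3, JAZ10, JAZ5, JAZ7 and JAZ8, and only JAZ2 and JAZ1 had ranges that overlapped. JAZ7, with 1 read in replicate 1, cannot be told from JAZ8 at 0 there. In WT it was JAZ9, JAZ12, JAZ6, JAZ2, JAZ1, JAZ3, JAZ10, JAZ5, JAZ7 and JAZ8. There the ranges of JAZ1 and JAZ3 overlapped, and so did those of each neighbouring pair from JAZ10 down to JAZ8.

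By coding sequence the nearest pairs were JAZ1 with JAZ2 (71.8% of bases identical over the longer sequence), JAZ5 with JAZ6 (68.6%), JAZ3 with JAZ4 (65.3%) and JAZ7 with JAZ8 (64.7%). The longest identical stretch within these 4 pairs was 20, 20, 25 and 18 bases in the same order. The sources used here do not say how reads that match several genes were counted. JAZ6 passed as lower while JAZ5 did not, and the difference between their log2 fold changes was not tested. JAZ4 (AT1G48500) lay under the limit with 0.69 and 0.75 RPKM in 35S:TEM1 and 0.48 and 0.66 RPKM in WT.

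The members fell into those whose samples of one genotype were close and those where they were not. JAZ9 in replicate 2 was 0.97 times its level in replicate 1 in both genotypes, whereas JAZ1 was at least 1.5-fold higher in replicate 2 of both genotypes. Only 0.958% of all tested genes (170) were higher by that much in replicate 2 of both genotypes, and 0.276% (49) in replicate 1 of both, where no tested JAZ gene fell. Of the 13 tested jasmonate synthesis genes 2, LOX4 and AOC3, were that much higher in replicate 2 of both. In a list of 11 genes known to respond within minutes to touch or wounding, 7 of the 9 tested were that much higher in replicate 2 of both. That list was chosen with earlier results of these data known, so its count describes these values only. The summed RPKM of the 11 was 50.5 and 215 in 35S:TEM1 replicates 1 and 2 and 97.0 and 242 in WT replicates 1 and 2. TCH4, a cell wall enzyme gene induced by touch and named here after its values were seen, had 6.91 and 95 RPKM in 35S:TEM1 and 12.4 and 67.3 RPKM in WT. Its replicates thus differed far more than its genotypes did. TCH3, a calmodulin-like gene, was the only one of the 9 called between genotypes, beside 25.7% of all tested genes called in either direction. It had 14.5 and 22.6 RPKM in 35S:TEM1 and 53.5 and 73.0 RPKM in WT (log2 fold change -1.73 ± 0.23 SE, limma adjusted p = 0.00412). The part of touch or wounding in the JAZ values was not tested.

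**Figure D3:**
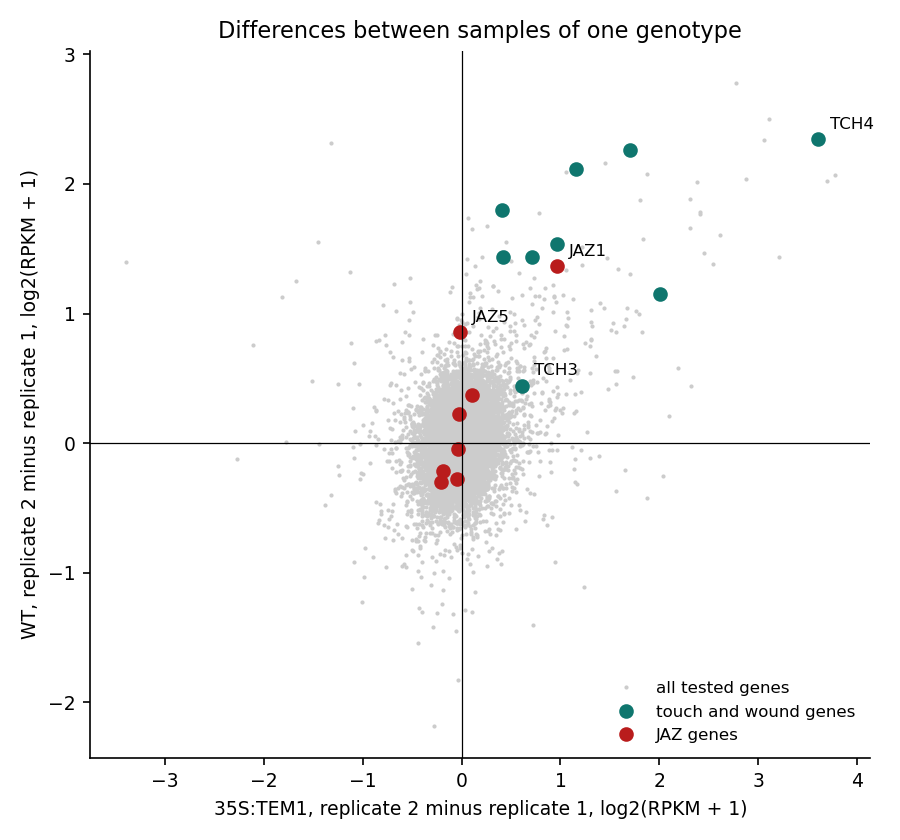
Difference between replicate 2 and replicate 1 in 35S:TEM1 (horizontal) and in WT (vertical), on the log2(RPKM + 1) scale, for all 17746 tested genes (grey), the 9 tested touch and wound genes (green) and the 8 tested JAZ genes (red). JAZ1 lies among the touch and wound genes at the upper right, JAZ5 is displaced in WT alone, and the other 6 JAZ genes lie near the origin.

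Among the proteins that work with JAZ, the receptor and adaptor transcripts did not pass, and the calls fell on corepressor and histone deacetylase genes. COI1, the receptor, had 16.6 and 14.0 RPKM in 35S:TEM1 and 13.5 and 11.6 RPKM in WT (log2 fold change 0.27, limma adjusted p = 0.158). NINJA had 38.2 and 36.5 RPKM in 35S:TEM1 and 33.2 and 35.0 RPKM in WT (0.13, limma adjusted p = 0.279, turning to -0.020 with equal sample medians). Of 13 tested genes of the receptor complex and its corepressors 3 rose and 10 did not pass, beside 18.3% of all tested genes called higher. TPL, which encodes TOPLESS, had a log2 fold change of 0.40 ± 0.08, its relative TPR1 of 0.63 ± 0.10 and the histone deacetylase gene HDA19 of 0.33 ± 0.09. Only TPR1 remained past the threshold with equal sample medians, and without 35S:TEM1 replicate 1 none of the 3 passed, at log2 fold changes of 0.36 for TPL, 0.62 for TPR1 and 0.39 for HDA19.

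Of 14 tested transcription factor genes whose products JAZ proteins are known to bind, 2 rose, 1 fell and 11 did not pass, near the 18.3% higher and 7.37% lower of all tested genes. JAM1, a bHLH repressor that competes with MYC2, rose to 17.7 and 18 RPKM in 35S:TEM1, against 10.6 and 10.7 RPKM in WT (log2 fold change 0.69 ± 0.09). GL1, a MYB gene of trichome initiation, fell to 0.79 and 1.15 RPKM in 35S:TEM1, against 3.59 and 4.04 RPKM in WT (-1.29 ± 0.15). Its mean in 35S:TEM1 was 0.97, so it reached the limit only through WT. MYC3 had a log2 fold change of 0.34 ± 0.09, a call lost under equal sample medians (0.19) and quantile scaling (0.26), with no filter, with no variance trend, and on leaving out any sample but WT replicate 1. MYC4 had 11.0 and 11.3 RPKM in 35S:TEM1 and 11.5 and 11.4 RPKM in WT (-0.037). MYC2 had 15.8 and 19.0 RPKM in 35S:TEM1 and 11.4 and 19.2 RPKM in WT (0.21, limma adjusted p = 0.527). Its sign turned without WT replicate 1 (-0.14) and it passed without WT replicate 2 (0.56), and 98.5% of its exon length lies under exons of AT1G32630 on the opposite strand, so its level is uncertain.

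On the hormone side, 7 of 13 tested jasmonate synthesis genes rose and 6 did not pass, beside 18.3% of all tested genes called higher. AOC1, an allene oxide cyclase gene, had a log2 fold change of 1.38 ± 0.08, LOX2 of 0.81 ± 0.08, LOX3 of 0.80 ± 0.16 and AOC2 of 0.57 ± 0.09. The 7 became 3 when replicate 1 of 35S:TEM1 was left out and 4 when its replicate 2 was. Reads of AOC1 and AOC2, which are close copies, may not have been told apart. Of 9 genes of jasmonate breakdown only 4 reached the limit. Of these 1 was higher, beside 18.3% of all tested genes. It was CYP94B1, a hydroxylase that starts inactivation, with 1.74 and 1.69 RPKM in 35S:TEM1 and 0.57 and 0.52 RPKM in WT (0.82 ± 0.14). CYP94B1 reached the limit only through its 35S:TEM1 values. Its call was lost without either 35S:TEM1 sample (0.80 and 0.83). Under the limit, JOX4 had 0.04 and 0.11 RPKM in 35S:TEM1 and 0.61 and 1.67 RPKM in WT. With no filter its log2 fold change was -0.95 (limma adjusted p = 0.0580). CYP94C1 also had both 35S:TEM1 values below both WT values, JOX1 had both above, and CYP94B3 and JOX3 overlapped.

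Response genes went both ways. Of 6 tested, 1 rose, 3 fell and 2 did not pass, beside 18.3% higher and 7.37% lower of all tested genes, and 4 lay under the limit. VSP2, a storage protein gene induced through MYC2, fell to 5.55 and 4.53 RPKM in 35S:TEM1, against 38.7 and 45.1 RPKM in WT (log2 fold change -2.83 ± 0.12). Its copy VSP1 had 2.72 and 2.60 RPKM in 35S:TEM1 and 6.49 and 13.6 RPKM in WT (-1.52 ± 0.29), a call lost without either 35S:TEM1 sample (-1.54 and -1.49). ORA59, a factor of the ethylene and jasmonate defence branch, fell to 0.37 and 0.19 RPKM in 35S:TEM1, against 1.62 and 2.67 RPKM in WT (-1.28 ± 0.21). It reached the limit only through WT. With a mean RPKM of at least 5 ORA59 was not tested and 2 response genes were lower. CORI3, a coronatine-induced lyase gene, rose to 245 and 237 RPKM in 35S:TEM1, against 71.1 and 63.7 RPKM in WT (1.82 ± 0.08).

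**Figure D4:**
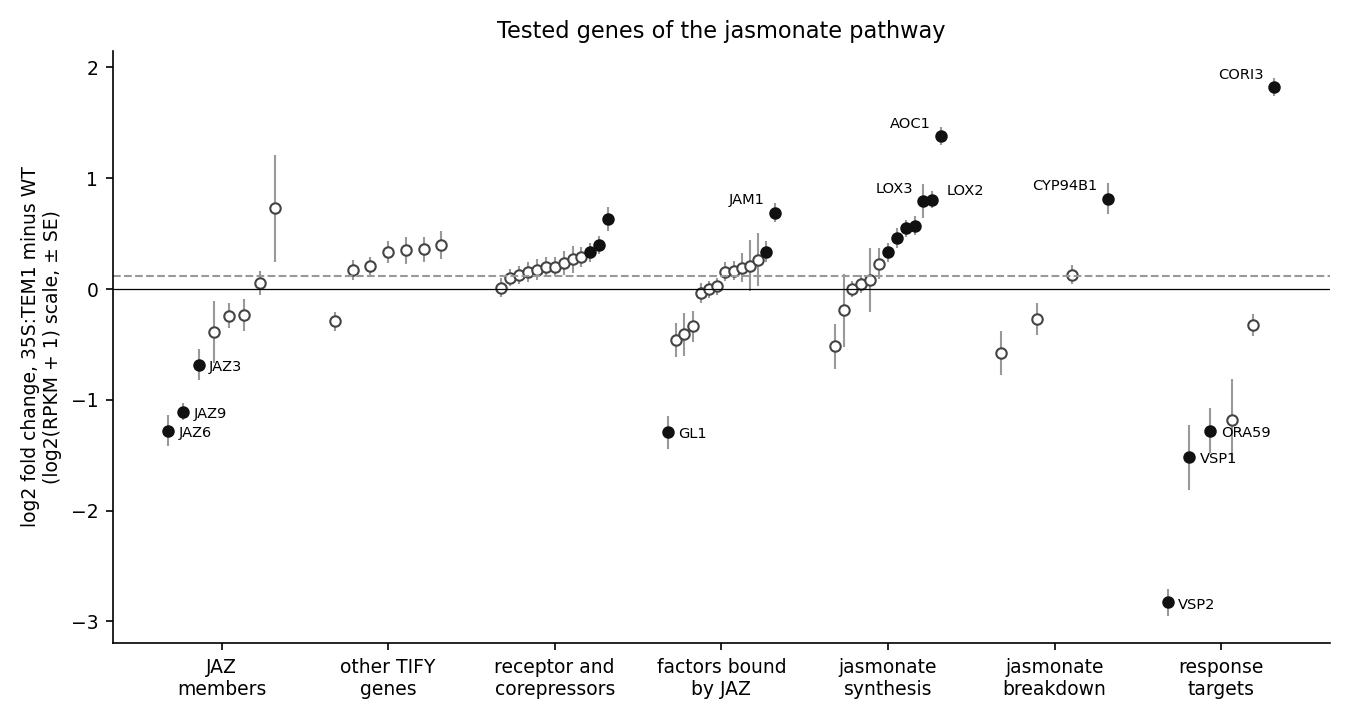
Log2 fold change (35S:TEM1 minus WT, log2(RPKM + 1) scale, bars ± SE) of every tested gene in 7 lists of the jasmonate pathway, filled where the limma adjusted p is under 0.05, with a dashed line at the median of all tested genes (0.12). JAZ9, JAZ6 and JAZ3 lie below 0 at the left, while the called synthesis genes lie above it.

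The 9 other genes of the TIFY family gave no call in either direction by limma, beside 25.7% of all tested genes called. Of the 9 genes 7 were tested, 5 had an unadjusted p under 0.05, as had 7167 of all 17746, and the median log2 fold change was 0.33. JAZ11 (AT3G43440), the JAZ gene nearest to the threshold among them, had 8.52 and 8.32 RPKM in 35S:TEM1 and 6.78 and 6.20 RPKM in WT (0.33 ± 0.10, limma adjusted p = 0.0554). TIFY8, nearest of the 7 tested, alone had a negative log2 fold change. It had 53.3 and 48.5 RPKM in 35S:TEM1 and 64.3 and 60.7 RPKM in WT (-0.29 ± 0.09, limma adjusted p = 0.0523). JAZ13 (AT3G22275) was listed at 0 in replicate 1 of both genotypes and at 0.05 and 0.06 RPKM in replicate 2 of 35S:TEM1 and WT.

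To set the lower members beside their pathway, the 50 tested genes of the receptor, factor, synthesis, breakdown and response lists were ranked by likeness. The measure was the Euclidean distance between log2(RPKM + 1) values centred over the 4 samples. Nearest to JAZ9 were GL1 (0.31) and ORA59 (0.42), nearest to JAZ6 were GL1 (0.20) and ORA59 (0.23), and nearest to JAZ3 were ILL6 (0.27), an amidohydrolase gene, and JR1 (0.38), a lectin gene. With 4 samples this ranking describes these values only.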

How the data were processed

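The authors deposited 1 RPKM value per locus and sample, and RPKM was the only unit used. Per the submitters' processing notes, STAR, Cuffdiff 2.2.1, FastQC, bcl2fastq 1.8.4 and TAIR10 were used, the notes stating neither their roles nor their order. The sources used here do not name the counter, the annotation, the strand setting or read filters. All value columns belong to the 4 samples.

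Loci were joined by identifier to RefSeq TAIR10.1, which held 31912 of 32678 (97.7%). The table has no coordinates, so those printed are of TAIR10.1. Scaling totals were taken as the most frequent value that 1 read over the RefSeq exon length gives, in bins of 5000 reads. They came to 20183817 and 27807143 reads in 35S:TEM1 and 30425737 and 24140725 reads in WT, at which the floor of 3 reads over 1 kb equals 0.149, 0.108, 0.0986 and 0.124 RPKM, counting error only. The whole read numbers given for low members are the smallest in the proportions of the deposited values, within 0.03 of a whole number. The true numbers may be multiples of them. Upstream windows were the 250 or 1000 bases before the annotated gene start. Coding sequences, the longest of each gene, were aligned globally with Biopython 1.88.

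Genes with a mean RPKM of at least 1 were tested with limma 3.58.1 in R 4.3.3 on log2(RPKM + 1), 2-sided, its variance prior following the mean level, and p-values were adjusted by Benjamini-Hochberg over 17746 genes. Fold changes are on that scale, which understates changes of low genes. The threshold was an adjusted p of 0.05, and the procedure was tested on simulated data. The members and lists were chosen with earlier results of these data known. Of each pathway list the 4 called genes with the largest change are named, with COI1, NINJA, TPL, MYC2, MYC3 and MYC4 in any case. Alternatives changed the pseudocount (0.25), the filter (none, or at least 5), the scaling, the variance trend, the replicate block and the samples.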

Additional observations from a re-analysis of the deposited data

How the results depend on the processing

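JAZ9 and JAZ6 were lower and past the threshold in every alternative run, and JAZ3 in all but the one without 35S:TEM1 replicate 2. The number of lower JAZ genes was 3 in each alternative with all samples and 2 to 4 with one left out. That of higher JAZ genes was 0 to 1 with one left out. The log2 fold change of JAZ12 reversed under equal sample medians (-0.098) and quantile normalization (-0.019), and that of NINJA under equal sample medians (-0.020). With one sample left out JAZ12 ranged over -0.087 to 0.19 and reversed without WT replicate 2, JAZ5 over -0.81 to 0.041 and reversed without WT replicate 2, and MYC2 over -0.14 to 0.56 and reversed without WT replicate 1. The causes were not tested.

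Replicate numbers are not stated to pair the samples. Over 17746 genes, replicate 2 minus replicate 1 had a Pearson correlation of 0.318 between the genotypes. With the replicate number as a block 1 JAZ gene was higher, JAZ1 (log2 fold change 0.73, limma adjusted p = 0.00277), and 3 were lower. The block also raised the calls among all 17746 genes, from 3255 to 4321 higher and from 1308 to 1801 lower. Under the block 3 other TIFY genes were higher and 1 lower, 1 synthesis and 1 breakdown gene lower, 5 response genes lower, and of the touch and wound genes 1 was higher and 2 lower.

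All genes gave 3255 higher and 1308 lower calls, against 1884 and 2388 with equal sample medians and 2021 and 1862 with quantile normalization. Both scalings gave 1 lower other TIFY gene and 1 higher factor gene, with 2 lower factor genes under equal medians and 3 under quantile normalization. Equal medians left 1 higher receptor or corepressor gene, and quantile normalization gave 5 lower response genes. With no filter 1 factor gene was higher. With a mean RPKM of at least 5, 0 factor genes were lower and 0 breakdown genes higher. With no variance trend 1 factor gene was higher and 2 were lower.

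Leaving out one sample gave 1331 to 2955 higher and 545 to 1417 lower genes in all. It gave 0 to 1 higher other TIFY genes, 0 to 3 higher receptor or corepressor genes and 1 to 2 higher factor genes. Synthesis genes numbered 3 to 7 higher and 0 to 1 lower, breakdown genes 0 to 1 in each direction, and touch and wound genes 1 to 4 lower. With 1 sample left in a genotype, that sample is assumed to vary like the others. Depth limits JAZ7 and JAZ8, which had few reads in every sample.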
